A study of Mus musculus with 6 samples.

Results

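The genes described here are 7 regulators of the stability of cytokine messenger RNA, taken by name from the deposited expression table of 23398 genes. They are the tristetraprolin family members Zfp36, Zfp36l1 and Zfp36l2, the Regnase family members Zc3h12a and Zc3h12c, the Roquin gene Rc3h1, and Elavl1, which encodes HuR. All 7 names matched exactly 1 row each. They were measured in dendritic cells grown from mouse bone marrow (BMDC), the antigen-presenting cells that start T cell responses. The 3 nanoparticle libraries came from cells exposed to Ca(OH)2 nanoparticles for 12 hours and the 3 vehicle libraries from cells given vehicle for the same time. The labels give no strain, sex, age, genotype, particle dose or growth factor for either group, and do not say whether replicates were separate cultures or animals, so the p-values measure only the spread between these libraries. The comparison addressed here is how exposure to the particles bears on the transcripts of these regulators.

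Messenger RNAs of inflammatory cytokines are short-lived because proteins bind elements in their 3' untranslated regions (3' UTRs) and hand them to nucleases. Tristetraprolin and its paralogs bind AU-rich elements through CCCH zinc fingers and recruit the CCR4-NOT deadenylase. Regnase-1 is an endoribonuclease that cuts transcripts at stem-loops, Roquin binds stem-loops of the same kind and recruits CCR4-NOT, and HuR binds AU-rich elements and protects the transcript. In myeloid cells those of the factors that promote decay are known for limiting the amount and the duration of cytokine production.

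The 2 kinds of element are shown first, because the factors are defined by them and several of the factors carry them in their own transcripts. The AU-rich element was searched as the nonamer UUAUUUAUU in the longest annotated 3' UTR of each gene, on the transcript strand, with overlapping matches counted. The nonamer was present in 7.65% of 21037 mouse 3' UTRs, and in 5 of the 7 factors. Longer 3' UTRs hold it more often, and 5 of the 7 exceeded the median length of 960 bases. Among 3' UTRs within 25% of the length of each factor, the share with a nonamer was 4.11% for Zfp36 and 9.75% for Zfp36l1. It was 9.58% for Zfp36l2, 4.64% for Zc3h12a, 17.1% for Zc3h12c, 28.4% for Rc3h1 and 17.4% for Elavl1. Capitals mark bases inside a nonamer.
Zfp36, chr7:28376951-28376980, minus strand: uuaugacgacuUUAUUUAUUguauuaagau
Zfp36l1, chr12:80108167-80108196, minus strand: aaacuguuggaUUAUUUAUUuuagaaauuc
Zfp36l2, chr17:84184914-84184943, minus strand: aacuauuuaacUUAUUUAUUaucuugugaa
Rc3h1, chr1:160970042-160970071, plus strand: uacuuuacucaUUAUUUAUUgagaugagga
Elavl1, chr8:4285777-4285806, minus strand: UUAUUUAUUUAUUUAUUUAUUuUUAUUUAU
Tnf, chr17:35199678-35199707, minus strand: UUAUUUAUUAUUUAUUUAUUAUUUAUUUAU
Coordinates are those of GENCODE M21 on GRCm38, the build that the submitters' notes call mm10. Tnf, the classical target of tristetraprolin, is printed for comparison and held 5 nonamers. Zfp36, Zfp36l1, Zfp36l2 and Rc3h1 held 1 nonamer each. Elavl1 held 8, a number reached by 0.165% of 3' UTRs within 25% of its length of 4218 bases. Zc3h12a and Zc3h12c held none.

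The stem-loop was searched as at least 6 consecutive base pairs, G-U pairs included, closed by a 3-base loop of pyrimidine, purine and pyrimidine, the form that Regnase-1 and Roquin recognise. It was found in 38.2% of all 3' UTRs, so a single match in a long 3' UTR is common. Capitals mark the loop. The Tnf hairpin is printed beside hairpins of Nfkbid and Nfkbiz, which encode inhibitor-like regulators of NF-kappaB, and of 2 of the factors.
Tnf, chr17:35199584-35199600, minus strand: uguuuucUGUgaaaacg
Nfkbid, chr7:30428401-30428417, plus strand: ugauuucUGUgaaaucg
Nfkbiz, chr16:55812613-55812629, minus strand: uuguuucUAUgaaacaa
Rc3h1, chr1:160971659-160971675, plus strand: uaacuucUGUgaaguug
Zc3h12a, chr4:125118886-125118902, minus strand: uaggcacCAUgugccug
Rc3h1 held 9 such hairpins in 7181 bases, as many as 0.557% of 3' UTRs of like length. Zc3h12a held 3 in only 856 bases, as many as 1.04% of 3' UTRs of like length. The Rc3h1 hairpin shown shares the loop UGU and the 3 closing pairs of the Tnf and Nfkbid hairpins. Each printed hairpin was chosen among several matches of its gene, and the other Rc3h1 matches had the loops UGU, UAC, UAU or CAU. How many 3' UTRs hold this loop with these pairs was not counted, so the likeness is a description only. A match is a stretch of letters and not a measured binding site.

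Expression was read as FPKM, here fragments per kilobase of the merged annotated exons of a gene, with 1 scale per library. Levels compared between genes depend on these lengths. Merged exons can be longer than the transcript in the cells, which lowers the FPKM of a gene. The merged exons of Zfp36, 3470 bases, cover its whole annotated gene. Changes of 1 gene between libraries do not depend on its length. The unit was deduced from the values. Whole reads could be recovered from the values, and the genes for which this worked summed to 16022246 to 20202838 reads per library. The 7 factors rested on 361 to 10749 reads in each library, which sets a counting error of at most 5.26% (Zfp36l1 in nanoparticle library 1). Nanoparticle library 1 stood apart: across 10682 genes, which are not independent replicates, it correlated with the other nanoparticle libraries at 0.9423 and 0.9282 on the log scale, against 0.9895 between those libraries. Calls that change without it are given beside the results. The label BMDC was checked against markers: Itgax was at 248 to 456 FPKM and Cd74 at 2270 to 5273 FPKM, whereas Flt3 reached at most 0.0793 FPKM and Zbtb46 4.15 FPKM. The summed level of 7 macrophage markers was 640.0 to 649 FPKM in vehicle and 831 to 1111 FPKM in nanoparticle libraries. Adgre1, Fcgr1 and Cd68 of that list rose, Mrc1 fell from 56.3 to 7.77 FPKM and C5ar1 from 9.16 to 3.41 FPKM, and Mertk and Csf1r were not called. The summed level of 9 neutrophil markers was 34.7 to 39.0 FPKM and 50.8 to 125 FPKM, most of it S100a8, which rose. S100a9 was at 0.962 to 1.65 FPKM in vehicle and at 0.352, 13.2 and 10.2 FPKM in nanoparticle libraries 1 to 3, and was not called. Ngp and Camp were also highest in nanoparticle libraries 2 and 3, at up to 4.30 and 1.99 FPKM. Mpo, Elane, Ly6g, Prtn3 and Ltf stayed at or under 0.315 FPKM in every library. The summed level of 10 dendritic cell markers was 5400 to 5806 FPKM in vehicle and 3090 to 6876 FPKM in nanoparticle libraries, lowest in nanoparticle library 1 for Itgax and Cd74. Of that list Irf8 rose from 8.68 to 21.2 FPKM, and Zbtb46 fell from 3.97 to 2.30 FPKM and Cd209a from 5.69 to 0.0254 FPKM. Itgax, H2-Ab1, Cd74, Batf3 and Irf4 were not called. Mast cell and basophil markers summed to 3.73 to 5.82 FPKM and 1.99 to 4.25 FPKM. Markers of T cells summed to at most 0.58 FPKM and those of B cells to at most 0.394 FPKM. The part of these marker differences in the results below was not tested, and in bulk RNA fewer cells of a type and less RNA per cell cannot be told apart.

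Differences were tested with limma on log2(FPKM + 1) over 10682 genes that reached 1 FPKM in 3 or more libraries, with Benjamini-Hochberg adjusted p-values over all of them and a threshold of 0.05. All 7 factors passed the expression filter. At that threshold 3 factors rose with nanoparticles (Zc3h12a, Zc3h12c and Zfp36), 1 fell (Zfp36l2), and 3 were not called (Zfp36l1, Rc3h1 and Elavl1). The background is high in this comparison: 33.2% of all genes tested passed, 17.0% higher and 16.2% lower. The groups did not overlap in the 4 called factors, as in 52.1% of all genes tested (25.9% higher and 26.2% lower). Without nanoparticle library 1 all 7 factors passed, 5 higher and 2 lower, against a background of 64.8% (34.3% higher and 30.5% lower).

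**Figure D1:**
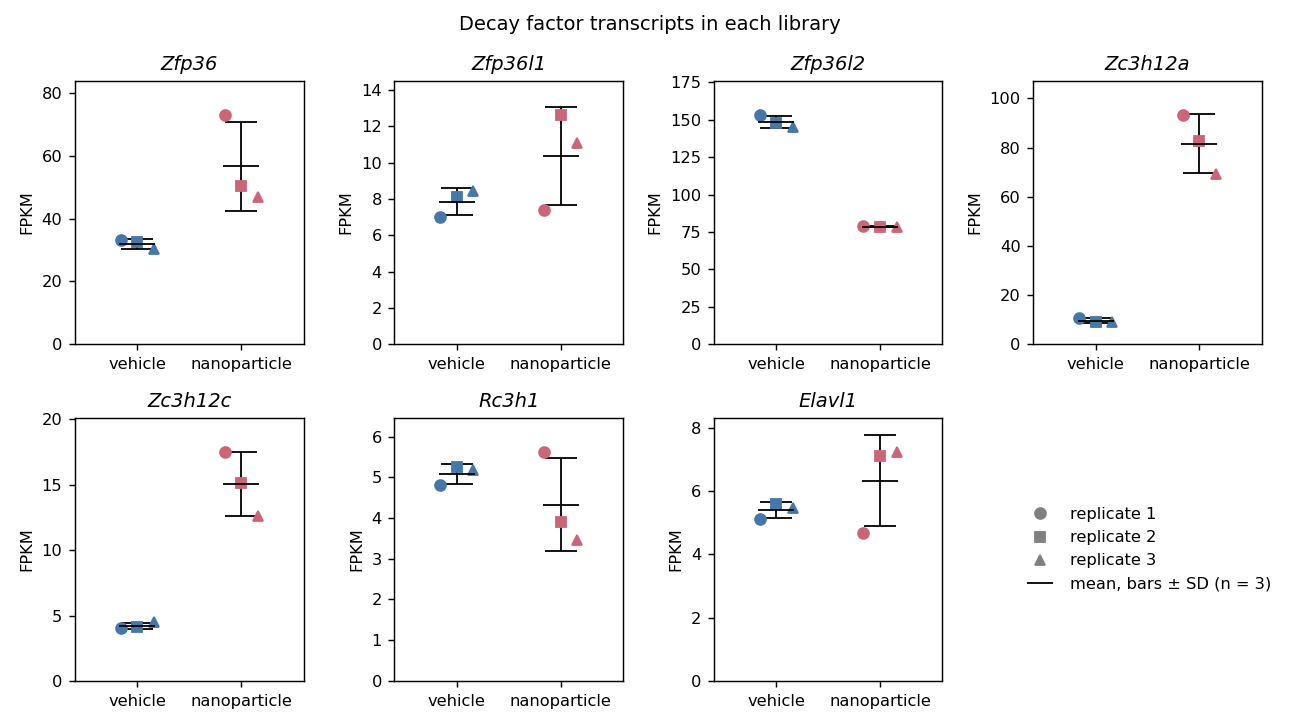
FPKM of the 7 decay factor genes in each library, vehicle in blue and nanoparticle in red, with a symbol per replicate number, the mean as a bar and the SD as error bars (n = 3 per group); each axis starts at 0. The groups separate for Zfp36, Zfp36l2, Zc3h12a and Zc3h12c, and nanoparticle library 1 lies apart from libraries 2 and 3 for Zfp36, Zfp36l1, Rc3h1 and Elavl1.

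Zc3h12a, the gene of Regnase-1 (ENSMUSG00000042677, chromosome 4, 125118423 to 125127840, minus strand), changed most of the 7. Its levels were 10.8, 8.89 and 9.14 FPKM in vehicle libraries 1 to 3 and 93.1, 82.5 and 69.3 FPKM in nanoparticle libraries 1 to 3. Every nanoparticle library lay far above every vehicle library. The group means were 9.63 ± 1.07 and 81.7 ± 11.9 FPKM (SD, n = 3 each), an 8.48-fold difference. The log2 change was 2.95 (SE 0.145, limma adjusted p = 8.4e-05), and Zc3h12a ranked 140 among the 10682 genes tested by increase. Without nanoparticle library 1 it was 2.86.

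Zc3h12c, the gene of Regnase-3 (ENSMUSG00000035164, chromosome 9, 52111344 to 52168572, minus strand), moved in the same direction from a lower level. Vehicle libraries 1 to 3 held 4.01, 4.11 and 4.49 FPKM, and nanoparticle libraries 1 to 3 held 17.5, 15.1 and 12.6 FPKM. The groups did not overlap, and as for Zc3h12a the third nanoparticle library was the lowest of its group. The mean went from 4.21 ± 0.254 to 15.1 ± 2.43 FPKM (SD, n = 3 each), 3.58-fold. On the log2 scale this was 1.62 (SE 0.134, limma adjusted p = 4.1e-04). Zc3h12d, a further paralog, was at 1.53 to 1.97 FPKM in vehicle and 1.90 to 2.29 FPKM in nanoparticle libraries and was not called (log2 change 0.15, limma adjusted p = 0.3448). Zc3h12b lay below the expression filter.

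Within the Regnase pair, Zc3h12a had the larger share of FPKM in every library, a share that depends on the exon lengths used. Zc3h12a made up 73.0%, 68.4% and 67.0% of the summed FPKM of the pair in vehicle and 84.2%, 84.5% and 84.6% after treatment, without overlap. The difference of 15.0 percentage points had an exact permutation p of 0.1 (two-sided, n = 3 each), the smallest p that 3 against 3 allows, so no threshold of 0.05 could be reached, and 0.1 after adjustment over the 3 within-library measures tested. The summed level of the pair was 13.0 to 14.9 FPKM in vehicle and 81.9 to 111 FPKM in nanoparticle libraries.

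Zfp36, which encodes tristetraprolin (ENSMUSG00000044786, chromosome 7, 28376784 to 28380253, minus strand), rose by a smaller amount. The vehicle libraries held 33.2, 32.6 and 30.2 FPKM and the nanoparticle libraries 72.9, 50.3 and 46.9 FPKM. All nanoparticle libraries were above all vehicle libraries, with library 1 well above the mean of 48.6 FPKM of libraries 2 and 3. The mean went from 32.0 ± 1.59 to 56.7 ± 14.2 FPKM (SD, n = 3 each), 1.77-fold. The log2 change was 0.78 (SE 0.181, limma adjusted p = 0.0185) and 0.59 (SE 0.0649, adjusted p = 3.4e-04) without nanoparticle library 1. This call depends on the settings: leaving out a vehicle library gave limma adjusted p = 0.0640 to 0.0798 at log2 changes of 0.74 to 0.81, and with libraries scaled to their recovered reads the log2 change was 0.45 (limma adjusted p = 0.0981).

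Zfp36l2 (ENSMUSG00000045817, chromosome 17, 84183931 to 84187947, minus strand), a paralog known for its part in blood cell formation, was the single factor that fell. Its levels were 153, 148 and 145 FPKM in vehicle and 78.9, 78.2 and 78.5 FPKM after treatment. The nanoparticle libraries were nearly equal, library 1 included, and all lay below the vehicle libraries. The mean went from 149 ± 4.08 to 78.5 ± 0.381 FPKM (SD, n = 3 each), 1.89-fold lower. The log2 change was -0.91 (SE 0.0996, limma adjusted p = 0.0011).

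Zfp36l1 (ENSMUSG00000021127, chromosome 12, 80107754 to 80113013, minus strand), the remaining member of the family, was not called. Vehicle libraries held 7.0, 8.13 and 8.43 FPKM and nanoparticle libraries 7.39, 12.6 and 11.1 FPKM. Nanoparticle library 1 lay within the vehicle range and libraries 2 and 3 above it. The log2 change was 0.33 (SE 0.194, limma adjusted p = 0.2382), and without library 1 it was 0.54 (SE 0.0955, limma adjusted p = 0.0029).

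Within the tristetraprolin family, the share of Zfp36 did not overlap between the groups. Zfp36 took 17.2%, 17.3% and 16.5% of the summed FPKM of the 3 genes in vehicle and 45.8%, 35.7% and 34.4% after treatment. The difference was 21.6 percentage points (exact permutation p = 0.1, two-sided, n = 3 each, the smallest possible, adjusted p = 0.1). Zfp36l2 went from 78.8% ± 0.370 to 54.2% ± 4.12 of the family and Zfp36l1 from 4.18% ± 0.498 to 7.23% ± 2.27 (SD, n = 3 each, not tested). These shares are ratios within a library and do not depend on the scaling between libraries. Their size does depend on the exon lengths used. The summed level of the family was 183 to 193 FPKM in vehicle and 137 to 159 FPKM in nanoparticle libraries, on the deposited scale.

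**Figure D2:**
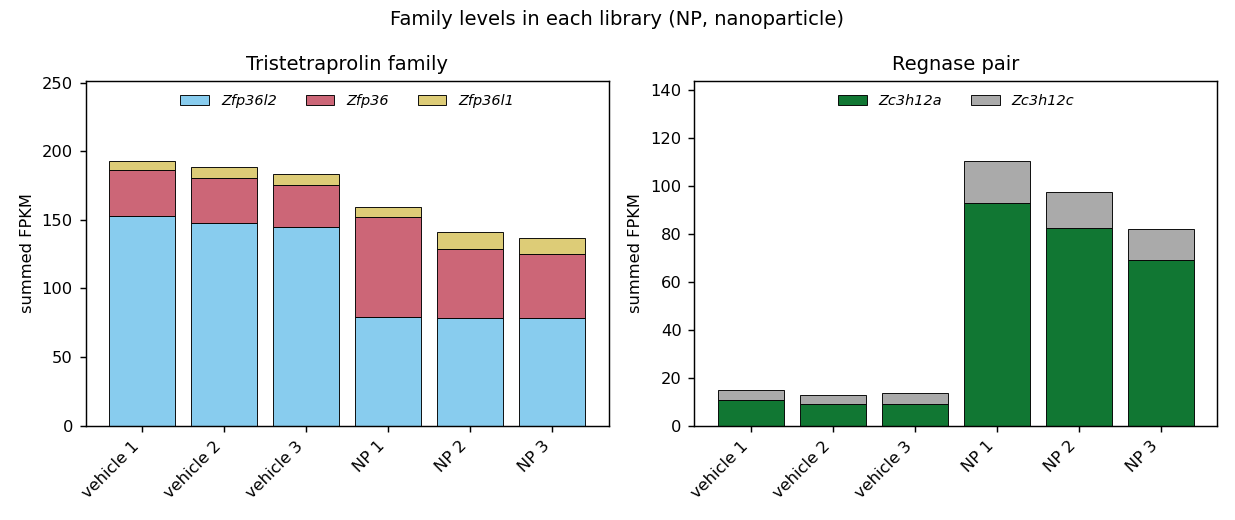
Stacked FPKM of the tristetraprolin family (left) and of the Regnase pair (right) in each of the 6 libraries; the height of a bar is the summed FPKM. Zfp36l2 takes most of each vehicle bar on the left and a smaller part of each nanoparticle bar, and the Regnase bars rise from at most 14.9 to at least 81.9 FPKM.

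Rc3h1, the gene of Roquin-1 (ENSMUSG00000040423, chromosome 1, 160906418 to 160974978, plus strand), had 4.81, 5.25 and 5.19 FPKM in vehicle and 5.62, 3.91 and 3.45 FPKM after treatment. Nanoparticle library 1 was the highest of all 6 libraries and libraries 2 and 3 were the lowest. The log2 change was -0.21 (SE 0.162, limma adjusted p = 0.3637), and -0.38 (SE 0.0808, limma adjusted p = 0.0063) without library 1. Its paralog Rc3h2 was at 1.63 to 1.71 FPKM in vehicle and 1.29 to 1.92 FPKM in nanoparticle libraries, with library 1 again the highest, and was not called.

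Elavl1, the gene of HuR (ENSMUSG00000040028, chromosome 8, 4285382 to 4325413, minus strand), showed the opposite order of nanoparticle libraries. Its levels were 5.13, 5.6 and 5.46 FPKM in vehicle and 4.66, 7.10 and 7.23 FPKM after treatment, so library 1 was the lowest of all 6 and libraries 2 and 3 the highest. The log2 change was 0.18 (SE 0.164, limma adjusted p = 0.4582), and 0.35 (SE 0.0683, limma adjusted p = 0.0042) without library 1. The log2 ratio of Zfp36 to Elavl1 was 2.69, 2.54 and 2.47 in vehicle and 3.97, 2.83 and 2.70 after treatment. These ranges are barely apart, and the mean difference of 0.597 (exact permutation p = 0.1, two-sided, n = 3 each, adjusted p = 0.1) was 0.194 without nanoparticle library 1. The neuronal paralog Elavl4 lay below the filter.

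The order of the factors by FPKM was not the same in the groups. Each order depends on the merged exon lengths, 3470 bases for Zfp36, 2882 for Zc3h12a and 3530 for Zfp36l2. In nanoparticle libraries 1 to 3 Zfp36 held 4133, 2889 and 3137 reads and Zc3h12a 4383, 3937 and 3851. With a shorter length the FPKM of Zfp36 would be higher, so its place is uncertain. In vehicle, Zfp36l2 was highest at 149 FPKM, followed by Zfp36 at 32.0, Zc3h12a at 9.63, Zfp36l1 at 7.85, Elavl1 at 5.40, Rc3h1 at 5.08 and Zc3h12c at 4.21 FPKM. Elavl1 and Rc3h1 overlapped in their ranges and the other neighbours did not. In nanoparticle libraries Zc3h12a at 81.7 FPKM and Zfp36l2 at 78.5 FPKM overlapped at the top, followed by Zfp36 at 56.7, Zc3h12c at 15.1, Zfp36l1 at 10.4, Elavl1 at 6.33 and Rc3h1 at 4.33 FPKM. There Elavl1 and Rc3h1 overlapped again. Zc3h12a was at 0.0600 to 0.0710 times the level of Zfp36l2 in vehicle libraries and at 0.883 to 1.18 times in nanoparticle libraries. By mean level, Zc3h12a went from the 64.1 to the 93.5 percentile of the genes tested and Zc3h12c from the 38.7 to the 71.9 percentile.

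**Figure D3:**
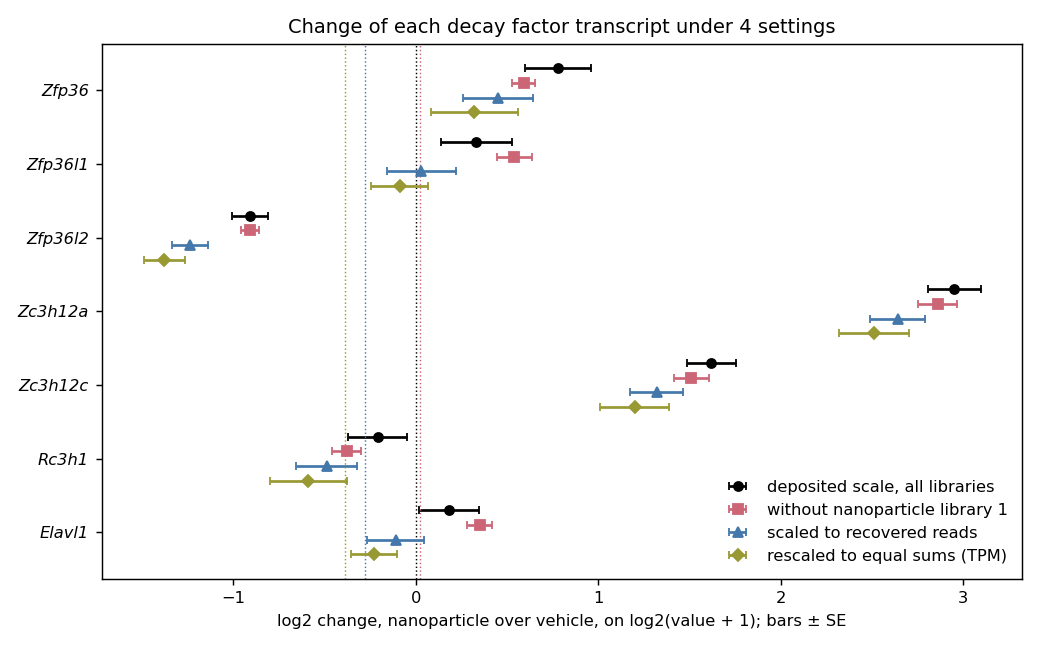
Log2 change of each factor, nanoparticle over vehicle, on log2(value + 1) with SE bars, under 4 settings; dotted lines mark the median change of all genes under the same setting. Zc3h12a and Zc3h12c lie right of 1 and Zfp36l2 left of 0 under each of them. Zfp36l1 and Elavl1 lie at 0.54 and 0.35 without nanoparticle library 1, where both were called. With recovered reads and equal sums Zfp36l1 lies at 0.03 and -0.09 and Elavl1 at -0.11 and -0.23, as the median of all genes moves.

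The deposited values carry a scaling between libraries that holds the median gene still. With libraries scaled to the reads recovered from them, the median log2 change of all genes was -0.28, and with libraries rescaled to equal sums it was -0.39. Zc3h12a then changed by 2.64 and 2.51, Zc3h12c by 1.32 and 1.20, and Zfp36l2 by -1.24 and -1.38, each with the call kept. Zfp36 was at 0.45 and 0.32, with the call lost under both (limma adjusted p = 0.0981 and 0.2929). Elavl1 was at -0.11 and -0.23 and Zfp36l1 at 0.03 and -0.09, with no call for either. These scalings shift all genes alike, so relative to the median gene the values lay near those on the deposited scale by construction: 0.73 and 0.71 for Zfp36, 0.17 and 0.16 for Elavl1, and 0.31 and 0.29 for Zfp36l1.

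Promoters of 6 of the 7 genes were taken from RefSeq (GRCm38.p6), and that of Zfp36l2 was not used here. They were read as windows of 250 bases before to 50 after a start. They were searched on both strands for the TATA box (TATAAA), the CCAAT box, the AP-1 site (TGANTCA), the cyclic AMP response element (TGACGTCA), the NF-kappaB consensus and the CArG box, the site of serum response factor. The windows of 2 factors that rose are printed, with matches in capitals.
Zfp36, chr7:28379179-28379478, minus strand: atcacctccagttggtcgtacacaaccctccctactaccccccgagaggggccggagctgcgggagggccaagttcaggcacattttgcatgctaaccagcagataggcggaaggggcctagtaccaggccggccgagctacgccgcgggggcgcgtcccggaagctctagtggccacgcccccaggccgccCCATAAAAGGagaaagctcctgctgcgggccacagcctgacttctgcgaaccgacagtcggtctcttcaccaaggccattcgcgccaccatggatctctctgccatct
Zc3h12a, chr4:125127832-125128131, minus strand: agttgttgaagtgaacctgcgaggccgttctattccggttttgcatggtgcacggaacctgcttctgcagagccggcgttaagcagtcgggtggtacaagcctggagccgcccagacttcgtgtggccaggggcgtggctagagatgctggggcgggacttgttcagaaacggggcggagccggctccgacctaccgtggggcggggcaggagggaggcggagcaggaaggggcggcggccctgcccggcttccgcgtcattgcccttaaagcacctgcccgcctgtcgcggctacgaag
The Zfp36 window held a CArG box, found in 1.63% of 32841 promoter windows. The Zc3h12a window held none of the 6 motifs, and neither did the upstream of the 2 Zc3h12c windows, which says only that these letters are not there. Rc3h1 and Zfp36l1 each held an AP-1 match (TGACTCA and TGATTCA), of a kind found in 7.81% of windows. Zfp36l1 also held a TATA box and a CCAAT box, Elavl1 2 CCAAT boxes and the other Zc3h12c window 1.

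Among other RNA-binding proteins of the same pathway, Arid5a and N4bp1 rose and Khsrp fell. Of 18 listed paralogs and binders, 12 passed the filter, of which 2 rose, 1 fell and 9 were not called. That is 3 of 12 called, where 33.2% of all genes were, with a median log2 change of 0.10 beside 0.00 over all genes tested. Arid5a, which shields Il6 transcripts from Regnase-1, rose from 0.781 ± 0.0619 to 2.07 ± 0.230 FPKM (limma adjusted p = 0.0020), and reached the filter level of 1 FPKM only in the nanoparticle libraries. N4bp1, a PIN-domain ribonuclease that restrains cytokine responses, rose from 4.82 ± 0.216 to 9.06 ± 1.52 FPKM (SD, n = 3 each, limma adjusted p = 0.0051). Khsrp, a KH-domain protein that promotes decay of AU-rich transcripts, fell from 21.3 ± 0.437 to 13.9 ± 2.16 FPKM (limma adjusted p = 0.0152), a call that was lost when any 1 vehicle library was left out, at log2 changes of -0.58 to -0.61 beside -0.59. With libraries rescaled to equal sums, 1 of 13 genes was higher and 5 were lower, beside 863 higher and 4416 lower of all 10814, and N4bp1 lost its call (limma adjusted p = 0.1295). Without nanoparticle library 1, 3 of 12 were higher and 2 lower, beside 64.8% of all genes called.

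Among enzymes that modify the factors, Mapkapk2 had the smallest adjusted p. Of 18 tested genes of this list, 7 rose, 2 fell and 9 were not called, with a median log2 change of 0.21. That is 9 of 18 called, where 33.2% of all genes were (17.0% higher and 16.2% lower). Without nanoparticle library 1, 10 were higher and 2 lower, beside 64.8% of all genes. Mapkapk2, the kinase MK2 that phosphorylates tristetraprolin, was at 59.6, 64.3 and 58.8 FPKM in vehicle and at 224, 224 and 225 FPKM in nanoparticle libraries (log2 change 1.87, SE 0.104, limma adjusted p = 1.1e-04). Its groups lay far apart, and nanoparticle library 1 did not differ from the others. Ppp2ca, the catalytic subunit of the phosphatase PP2A that removes those phosphates, rose by a log2 change of 0.51, Ikbkb, a kinase that marks Regnase-1 for destruction, by 0.57, and the innate immune kinase Tbk1 by 0.85 (limma adjusted p = 0.0058, 0.0051 and 0.0034). Dusp1, which inactivates p38, and Malt1 and its partner Bcl10, Malt1 being the protease that cleaves Regnase-1 and Roquin, rose as well, and Mapk14, the kinase p38alpha, and Irak1 fell. These 5 were picked after their values were seen. With libraries rescaled to equal sums, 1 gene of 17 tested was higher and 5 were lower, beside 863 higher and 4416 lower of all genes. Under that setting the calls of Ppp2ca (0.06), Ikbkb (0.20) and Tbk1 (0.40) were lost, at limma adjusted p = 0.6811, 0.2484 and 0.1026. Mapkapk2 was the 1 gene higher, so Dusp1, Malt1 and Bcl10 lost their calls as well. With libraries scaled to recovered reads Ppp2ca was at 0.19 (limma adjusted p = 0.1303).

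Among genes of the common decay machinery, Btg1 rose and Tob1 fell the most. Of 47 tested genes of deadenylation, decapping and exonuclease digestion, 2 rose, 4 fell and 41 were not called, which is 12.8% called beside 33.2% of all genes on the deposited scale. Of the 6 calls, 4 were BTG and TOB adaptors, small proteins that bind the CCR4-NOT deadenylases. Btg1 rose from 65.4 ± 1.69 to 178 ± 6.33 FPKM (log2 change 1.43, limma adjusted p = 2.5e-04). Tob1 fell from 13.9 ± 0.280 to 6.23 ± 0.795 FPKM and Tob2 from 6.99 ± 0.216 to 4.74 ± 0.577 FPKM (SD, n = 3 each, limma adjusted p = 0.0010 and 0.0162). Dis3, a catalytic subunit of the RNA exosome, fell by 0.45 on the log2 scale. The calls of Tob2 and Dis3 were lost when any 1 vehicle library was left out (limma adjusted p = 0.0669 to 0.0814 and 0.0509 to 0.0603), at log2 changes of -0.46 to -0.50 and -0.43 to -0.46. The other calls, named here after their values were seen, were Btg2, lower, and the decapping enzyme Dcp2, higher. Without nanoparticle library 1, 9 genes of this list were higher and 12 lower, which is 44.7% beside 64.8% of all genes. With libraries scaled to recovered reads 1 was higher and 19 were lower, which is 42.6% beside 43.8% of all genes, and with equal sums 1 was higher and 25 were lower, 55.3% beside 48.8%.

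Most known target transcripts of the factors were higher after treatment. Of 19 tested genes, 17 rose, 1 fell and 1 was not called, with a median log2 change of 4.14. Of all genes tested 33.2% were called, 17.0% higher and 16.2% lower. With libraries rescaled to equal sums, 16 of 18 were higher and 1 lower, beside 863 higher and 4416 lower of all 10814. This list holds cytokines whose rise was known when it was chosen, so its direction is not independent evidence. Il6, Il10, Il12b, Il23a, Csf2, Cxcl1, Ptgs2, Nfkbiz and Lcn2 reached 1 FPKM only in nanoparticle libraries, so these 9 passed the filter through the group where they are high and could not count as lower. Of the other 10, 8 rose, 1 fell and 1 was not called. Il6, Il10, Il23a and Csf2 were at or under 3 reads in every vehicle library, and with these 4 at that bound the median log2 ratio of FPKM was 5.79. Tnf, with the element shown above, was at 46.5 to 48.5 FPKM in vehicle and at 965 to 1264 FPKM in nanoparticle libraries. The nanoparticle means of Il1b, Il6, Cxcl2 and Lcn2, the 4 with the smallest adjusted p, were 2787, 312, 1602 and 50.4 FPKM. Tfrc, the transferrin receptor gene and a Regnase-1 target, was the exception and fell, with 20.7 ± 0.541 FPKM in vehicle and 9.18 ± 0.803 FPKM after treatment (SD, n = 3 each), a log2 change of -1.10 (limma adjusted p = 5.8e-04). Vegfa was not called and stood at 54.0 FPKM in nanoparticle library 1 against 4.89 to 7.73 FPKM in the other libraries. Without that library it was lower (log2 change -0.32, limma adjusted p = 0.0492).

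**Figure D4:**
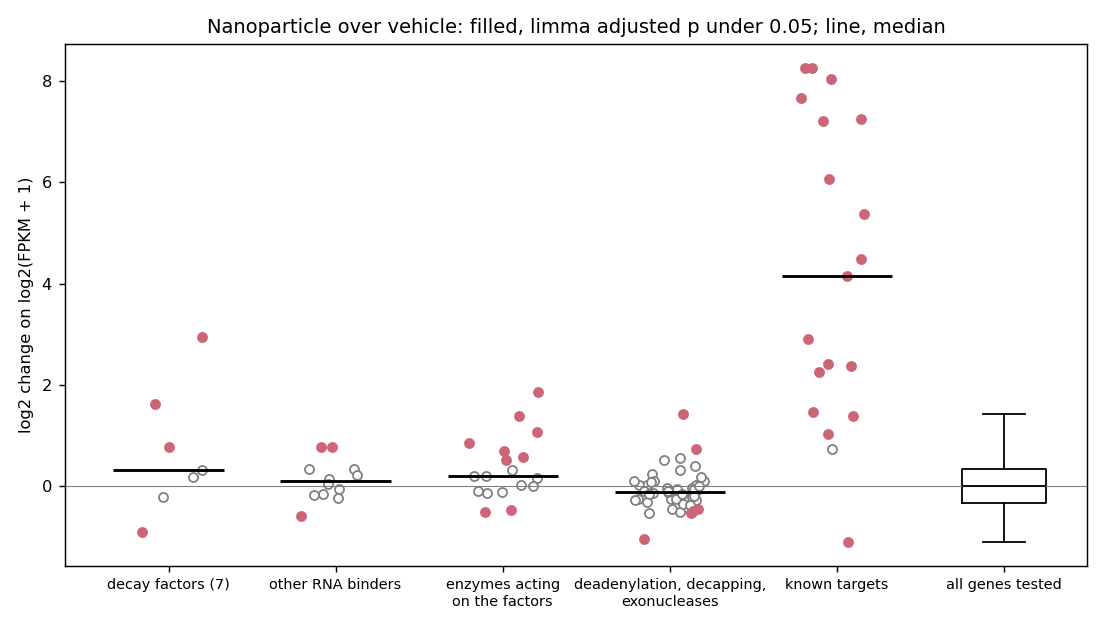
Log2 change on log2(FPKM + 1) of every tested gene of the 7 factors and of 4 lists, filled where the limma adjusted p was under 0.05, with the median as a line; the box at the right spans the quartiles of all 10682 genes and its whiskers the 5th and 95th percentiles. The targets spread from -1.10 to 8.26, whereas the decay machinery spreads from -1.04 (Tob1) to 1.43 (Btg1) around a median of -0.12.

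Across all transcripts, the shares of called genes were set beside the number of nonamers. Of 8918 tested genes with no nonamer in the 3' UTR, 17.1% were higher and 17.2% lower. Of 603 genes with 1 nonamer, 16.3% were higher and 17.2% lower, and of 168 genes with 2 or more, 21.4% were higher and 15.5% lower. The latter include 59 genes with 3 or more, of which 27.1% were higher and 15.3% lower. The median log2 changes were -0.01, -0.05 and -0.02 for none, 1 and 2 or more, and 0.05 for 3 or more. Genes with more nonamers had longer 3' UTRs, with medians of 1066, 2139 and 2675 bases. Among 3' UTRs of intermediate length (median 1244 bases with and 1067 without a nonamer), 22.4% of 295 genes with a nonamer were higher and 12.5% lower, and of 4149 without one 18.3% were higher and 17.5% lower. These shares are descriptions and were not tested.

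The genes whose profile over the 6 libraries was most like each factor were ranked by the root mean square difference of centred log2(FPKM + 1), among 6104 genes with a mean of at least 5 FPKM. The closest to Zc3h12a were Arg2 (0.119) and Oas1a (0.148), where the median gene lay at 1.46. Arg2 was at 0.496 FPKM in vehicle and 10.6 FPKM after treatment, so its likeness depends on the pseudocount: with 0.1 in place of 1 its log2 change was 4.14, against 3.07 for Zc3h12a. Zc3h12c had Ralgds (0.0362) and Agrn (0.0604), Zfp36 had Sgpl1 (0.0387) and Cybb (0.0472), and Zfp36l2 had Man1c1 (0.0358) and Capn15 (0.0397). For the factors that were not called, Zfp36l1 was closest to Mrps7 (0.0526) and Babam1 (0.0655), Rc3h1 to Cbl (0.0188) and Cdk6 (0.0235), and Elavl1 to Arpc1a (0.0115) and Ufc1 (0.0273). These last 6 genes, and also Sgpl1 and Cybb, share the position of nanoparticle library 1 apart from libraries 2 and 3. That follows from choosing genes by their profile.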

How the data were processed

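The authors deposited 1 value per gene and library in a pair of tables with identical values (140388 of them), 1 named for read counts. No header or label names the unit. They were read as FPKM, a unit the authors' deposited values fit: multiplied by GENCODE M21 exon lengths and 1 scale per library, 95.8% to 96.1% of those above 0 gave whole reads (within 0.01). The scales followed median-of-ratios size factors within 0.15%, a deduction from the values. Per the submitters' processing notes, STAR 2.5, HTSeq, edgeR 3.16.5, DESeq2 2 and CASAVA were used, with builds mm10 and hg19, in roles not given in the sources used here. Strand use is not stated. Zfp36, Zfp36l1, Zfp36l2, Zc3h12c and Elavl1 overlap genes on the other strand and Rc3h1 overlaps genes on its own, of which those listed reached at most 2.03 FPKM.

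limma 3.58.1 (R 4.3.3) was fitted on log2(FPKM + 1) with group as its single term, a mean-variance trend and Benjamini-Hochberg adjustment. The fit was first tried on simulated data with the same spread in every library. That trial does not cover a library that stands apart, as nanoparticle library 1 does here. Log2 changes understate those of low genes. Ratios within a library were tested by exact permutation (scipy 1.17.1). Replicate libraries differed by more than sampling noise (chi-square per degree of freedom 2.86 to 264), so none was merged. The members and gene lists were chosen with earlier results of these data known. Genes named beyond the 7 are up to 4 per list with the smallest adjusted p past the threshold, and the 2 closest in profile per factor. Alternatives were scaling, pseudocount, filter, trend, replicate block and leaving out each library. Scaling to recovered reads and limma-voom on them were chosen after seeing the data.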

Additional observations from a re-analysis of the deposited data

How the results depend on the processing

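The calls of Zc3h12a, Zc3h12c and Zfp36l2 held with the same direction under all 15 alternatives. Of 3550 genes called, 1817 were higher and 1733 lower (51.2% higher). Rescaling to equal sums gave 863 higher and 4416 lower (16.3% higher), upper quartile scaling 2762 lower (32.1% higher), scaling to recovered reads 1110 higher and 3607 lower (23.5% higher), and a filter at 5 FPKM, which tests fewer genes, 975 lower. Leaving out 1 library at a time gave 2141 to 6923 genes, 1114 to 3660 higher and 1027 to 3263 lower, and 3 to 7 of the factors, 2 to 5 of them higher and 1 to 2 lower. The highest of these values came without nanoparticle library 1, and the cause was not tested. Zfp36 lost its call with equal sums (0.32), the upper quartile (0.57), recovered reads (0.45) and without each vehicle library. The log2 change of Zfp36l1 turned to -0.09 with equal sums, and that of Elavl1 to -0.23, -0.0065 and -0.11 with equal sums, the upper quartile and recovered reads. Of the genes alike in profile, Mrps7 turned to -0.10, Babam1 to -0.22, Arpc1a to -0.27 and Ufc1 to -0.29 with equal sums. With the upper quartile Arpc1a was at -0.02 and Ufc1 at -0.04, and with recovered reads Babam1 was at -0.09, Arpc1a at -0.14 and Ufc1 at -0.16. The within-library differences kept their direction without each library, from 18.0 to 23.8 percentage points for Zfp36, 13.8 to 16.7 for Zc3h12a and 0.194 to 0.83 on the log2 scale for Zfp36 over Elavl1.

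Equal replicate numbers correlated at 0.065, 0.113 and -0.058 in their deviations from the group means, and only the first and second libraries were closest to their own number, so the numbers were not taken as pairs. With the replicate block 2785 genes and 4 factors were called, and the within-library differences of 21.6, 15.0 and 0.597 had p = 0.25, the smallest that exact sign flips of 3 pairs allow.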
